A study of Homo sapiens with 4 samples.

Results

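The 10 genes described here encode proteins that recognise or remove N6-methyladenosine (m6A), a methyl mark on adenosines inside messenger RNA. They were taken by symbol from a count table of 56303 genes, and all 10 were found and passed the filter that left 17689 genes for testing. They comprise the YTH-domain readers YTHDF1, YTHDF2, YTHDF3, YTHDC1 and YTHDC2, the KH-domain readers IGF2BP1, IGF2BP2 and IGF2BP3, and the erasers FTO and ALKBH5. EJ and T24T are both established human lines from bladder cancer, and the column names of the deposited tables write T24 for T24T. T24T is known as a derivative of T24, and stocks of EJ have been reported to share their origin with T24, which was not checked here. Each line gave 1 library after transfection of the circular RNA hsa_circ_0008399 (circ) and 1 library after transfection of the vector. This makes 4 groups of 1 library, and the column names mark circ libraries OE1 and vector libraries NC. The treatment protocol names no other agent, and neither the time after transfection nor the amount of construct is given in the labels.

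The m6A mark is placed by a methyltransferase complex built on METTL3 and METTL14 with WTAP and further subunits. The cytoplasmic YTHDF proteins bind the mark and are best known for bringing marked mRNA to the deadenylation and decay machinery, the nuclear YTHDC1 acts in splicing and export of marked transcripts, and YTHDC2 is an RNA helicase known for its part in meiosis. The IGF2BP proteins are oncofetal RNA-binding proteins that favour the stability of marked mRNA, and FTO and ALKBH5 are AlkB-family dioxygenases that take the methyl group off again. The question addressed here is how the mRNA of the genes that read and erase the mark compares between circ and vector cells and between the lines.

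Total counts per library ran from 14703455 to 18057768. The mitochondrial share of all counts was 5.40% and 5.05% in the vector libraries and 4.01% and 3.08% in the circ libraries. Of the urothelial or epithelial markers, transcripts of the keratins KRT7, KRT8 and KRT18 were abundant in both lines. The others were low or absent. KRT5 and UPK3A had 0 counts in all 4 libraries. CDH1, GATA3, UPK1B and KRT20 had between 0 and 5 counts per library, and UPK2 and PPARG between 11 and 48. EPCAM had 7 and 4 counts in EJ against 117 and 111 in T24T. The lowest and highest summed levels of the 4 leukocyte markers were 0.029 and 0.068 RPKM (reads per kilobase of exon, scaled to the library total), and those of the 4 mesenchymal markers were 158 and 224 RPKM. Of the mesenchymal markers, CDH2 was lower in T24T (2.02 and 1.59 RPKM) than in EJ (22.3 and 20.6). FN1 was higher in T24T (77.4 and 39.9 RPKM against 10.7 and 7.39). The transfected circle cannot be followed, because counts are given by gene symbol and not by junction.

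The sequences upstream of YTHDC1, YTHDC2 and IGF2BP2 are given because YTHDC1 was the 1 member that passed the test between circ and vector, and YTHDC2 was the member whose difference between the lines passed under each setting tried. IGF2BP2 had the smallest edgeR adjusted p between the lines with TMM scaling. Each is the 250 bases before the RefSeq gene start nearest to the start in the count table, build GRCh38.p14, read 5′ to 3′ on the strand of the gene. Capitals mark matches on either strand to the GC box GGGCGG, the CCAAT box CCAAT and the cAMP response element TGACGTCA.
YTHDC1 (chr4:68350091-68350340, minus strand): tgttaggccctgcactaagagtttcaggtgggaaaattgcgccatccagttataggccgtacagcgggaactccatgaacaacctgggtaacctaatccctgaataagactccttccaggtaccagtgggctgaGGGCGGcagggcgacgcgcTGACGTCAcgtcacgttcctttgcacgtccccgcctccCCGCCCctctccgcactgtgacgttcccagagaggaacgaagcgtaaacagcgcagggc
YTHDC2 (chr5:113513444-113513693, plus strand): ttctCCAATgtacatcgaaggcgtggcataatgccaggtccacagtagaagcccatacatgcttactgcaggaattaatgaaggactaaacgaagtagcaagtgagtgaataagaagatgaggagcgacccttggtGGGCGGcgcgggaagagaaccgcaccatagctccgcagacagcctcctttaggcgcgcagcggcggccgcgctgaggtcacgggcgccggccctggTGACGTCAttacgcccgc
IGF2BP2 (chr3:185825043-185825292, minus strand): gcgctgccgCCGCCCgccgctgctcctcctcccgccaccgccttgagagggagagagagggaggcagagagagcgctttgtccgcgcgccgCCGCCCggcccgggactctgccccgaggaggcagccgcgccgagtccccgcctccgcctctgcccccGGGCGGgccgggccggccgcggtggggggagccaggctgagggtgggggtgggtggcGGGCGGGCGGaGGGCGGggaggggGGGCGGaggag

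The stretches of YTHDC1 and YTHDC2 each held 1 full cAMP response element. That element occurred in 1.65% of 35116 promoter stretches of 250 bases. A GC box, found in 42.6% of all stretches, occurred 7 times upstream of IGF2BP2, 2 times upstream of YTHDC1 and 1 time upstream of YTHDC2. A CCAAT box, found in 32% of all, occurred 1 time upstream of YTHDC2. Of these bases, G and C made up 81.6% in IGF2BP2, 58.8% in YTHDC1 and 58% in YTHDC2. The E-box CACGTG, the AP-1 motif TGANTCA, the ETS core CCGGAA and the TATA box TATAAA were searched as well and had 0 matches in all of them. A pair of the GC boxes of IGF2BP2 overlapped, and no other matches did. Of the 10 genes, 8 had an upstream sequence, with 10 entries in all, and the element TGACGTCA was in 2 of these entries, those of YTHDC1 and YTHDC2. A match describes letters in this window, and binding was not measured.

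The members spanned a wide range of levels. Levels of different genes are compared as deposited RPKM, which divides the count by the gene's exon length and the library total. IGF2BP2 was the highest member in each library, at 48.2 RPKM with vector and 41.4 with circ in EJ, and at 69.0 and 66.5 in T24T. YTHDC1 came next, at 23.8, 27.1, 24.9 and 32.3 RPKM in the same order. ALKBH5 followed between 10.9 and 13.5 RPKM, then YTHDF1 between 9.29 and 11.7, YTHDF2 between 7.80 and 10.97 and YTHDF3 between 4.47 and 6.08. The lowest levels were those of IGF2BP3, between 3.52 and 3.94 RPKM, YTHDC2, between 2.38 and 3.85, FTO, between 2.47 and 2.86, and IGF2BP1, between 2.29 and 2.72. The ranges of IGF2BP2, YTHDC1, YTHDF3 and the higher group around ALKBH5 did not overlap, whereas ALKBH5, YTHDF1 and YTHDF2 overlapped with each other, and so did YTHDC2 with IGF2BP3, FTO and IGF2BP1. For comparison, the median tested gene lay between 3.17 and 3.31 RPKM.

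**Figure D1:**
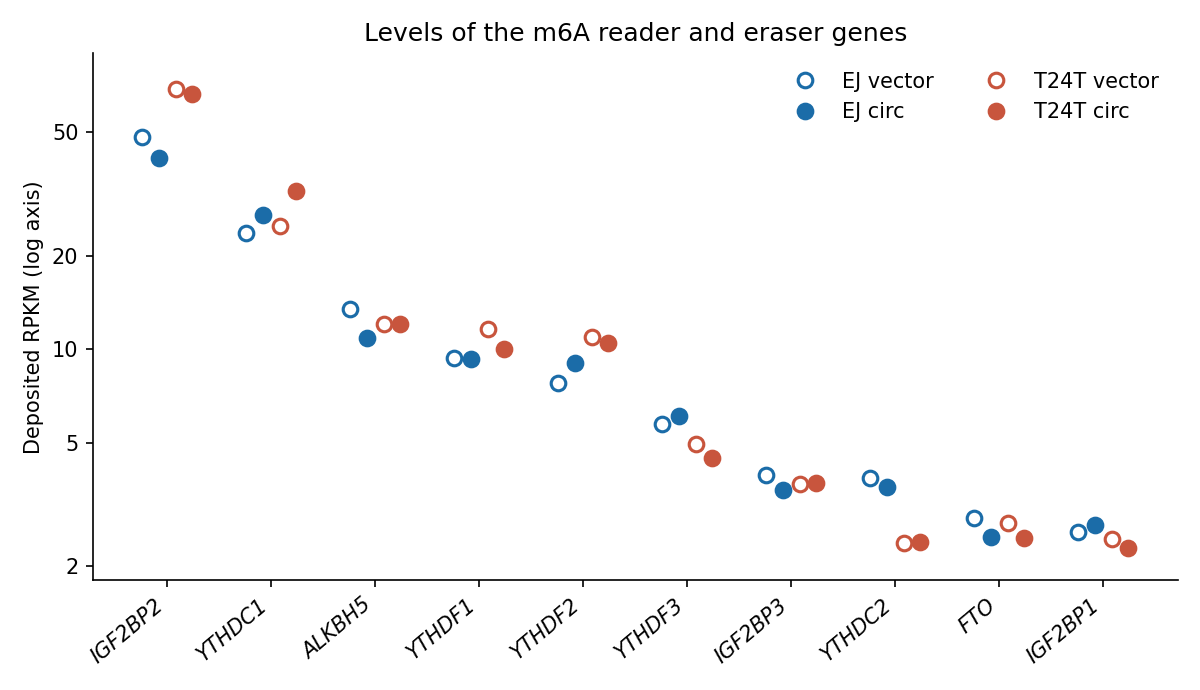
Deposited RPKM on a log axis for each of the 10 genes, ordered by mean level, with open circles for vector, filled circles for circ, blue for EJ and red for T24T; each point is 1 library. IGF2BP2 and YTHDC1 stand above the rest in each library, and YTHDC2 is between 3.60 and 3.85 in EJ against 2.38 and 2.39 in T24T.

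Within each family, 1 gene supplied most of the mRNA in 3 of the groupings. IGF2BP2 made up between 86.9% and 91.9% of the summed RPKM of the IGF2BP trio. YTHDC1 made up between 86.0% and 93.1% of the YTHDC pair, and ALKBH5 between 81.4% and 83.0% of the erasers. The YTHDF trio was more even, with YTHDF1 between 38.1% and 42.2%, YTHDF2 between 34.1% and 42.0% and YTHDF3 between 17.9% and 25.04%. By deposited RPKM, YTHDF1 was above YTHDF2 in 3 libraries and below it in T24T circ.

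The order of the genes depends on the length used. The deposited length counts every annotated exon, which for FTO comes to 21379 bases against 11766 for its principal GENCODE transcript, and for YTHDF3 to 6163 against 2370. Per kilobase of the principal transcript, YTHDF3 was the highest of its trio in EJ, at 14.9 and 15.8 on the same scale against 10.3 and 11.9 for YTHDF2. In T24T it was below YTHDF2, at 12.9 and 11.6 against 14.5 and 13.8, and it was above YTHDF1 in all 4 libraries. By the mean over the 4 libraries, IGF2BP2 at 72.3 and YTHDC1 at 58.5 held the top positions and IGF2BP1 at 2.76 the last. In EJ circ, however, YTHDC1 at 58.7 was above IGF2BP2 at 53.1, whereas IGF2BP2 was the higher one in the other libraries.

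Some reads of these genes could be shared with other loci. Whether reads of genes on opposite strands were told apart is not known, since the use of strand in counting is not given in the sources used here. IGF2BP3 shared 1521 bases, 17.9% of its exon bases, with MALSU1 on the opposite strand, a mitochondrial ribosome assembly gene with between 448 and 519 counts. ALKBH5 shared 11.2% with the antisense transcript RP11-258F1.1, which had between 161 and 211 counts. Of the stretches of 50 bases in the annotated YTHDF2 transcripts, 8.72% also occurred in its pseudogene YTHDF2P1, which had 1 or 2 counts. IGF2BP2 shared 6.45% with other transcripts, and YTHDC1 and YTHDF1 shared 0% each.

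Between circ and vector, the nuclear reader YTHDC1 was the 1 gene of the 10 that passed the test, and it was higher with circ. Of the 10 genes, 1 rose and 0 fell by the quasi-likelihood test of edgeR, blocked on the line, at a Benjamini-Hochberg adjusted p under 0.05. Among all tested genes 12.7% were called, 7.13% higher and 5.56% lower, so 1 in 10 is near the background. The median log2 fold change of the 10 was -0.05, beside 0.0018 for all tested genes. At an unadjusted p under 0.05 the count was also 1 higher and 0 lower, and limma-voom called 1 (13.3% of all tested genes), whereas DESeq2 called 0, with 1 unadjusted (3.96% of all genes with an adjusted p).

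YTHDC1 (chr4:68310387-68350089, minus strand, hg38) encodes the nuclear reader. In EJ it had 2614 counts with vector and 2798 with circ, and in T24T 2952 with vector and 4101 with circ. Scaled to a common library size by the TMM method (CPM), these were 163, 187, 178 and 234 CPM, so both circ libraries lay above both vector libraries, an order seen in 15.2% of tested genes. Its log2 fold change was 0.30 ± 0.09 (SE of the fit over 2 lines, edgeR adjusted p = 0.0179), or 1.23-fold with a 95% interval of 1.09 to 1.39. In EJ the ratio was 1.14-fold (95% counting interval 1.09 to 1.21) and in T24T 1.32-fold (1.26 to 1.38). These counting intervals do not overlap, but they hold no spread between cultures, and the difference between the lines was not tested. DESeq2 gave YTHDC1 an adjusted p of 0.216, limma on log2(RPKM + 1) one of 0.224, and edgeR without the line block one of 1.0. In a bulk culture, more cells that hold a transcript and more of it per cell cannot be told apart. The mitochondrial share fell in the same libraries, and its part in the result was not tested. With GC and length trends removed from each library, the fold change was 0.30 on the log2 scale and the edgeR adjusted p was 0.0251.

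**Figure D2:**
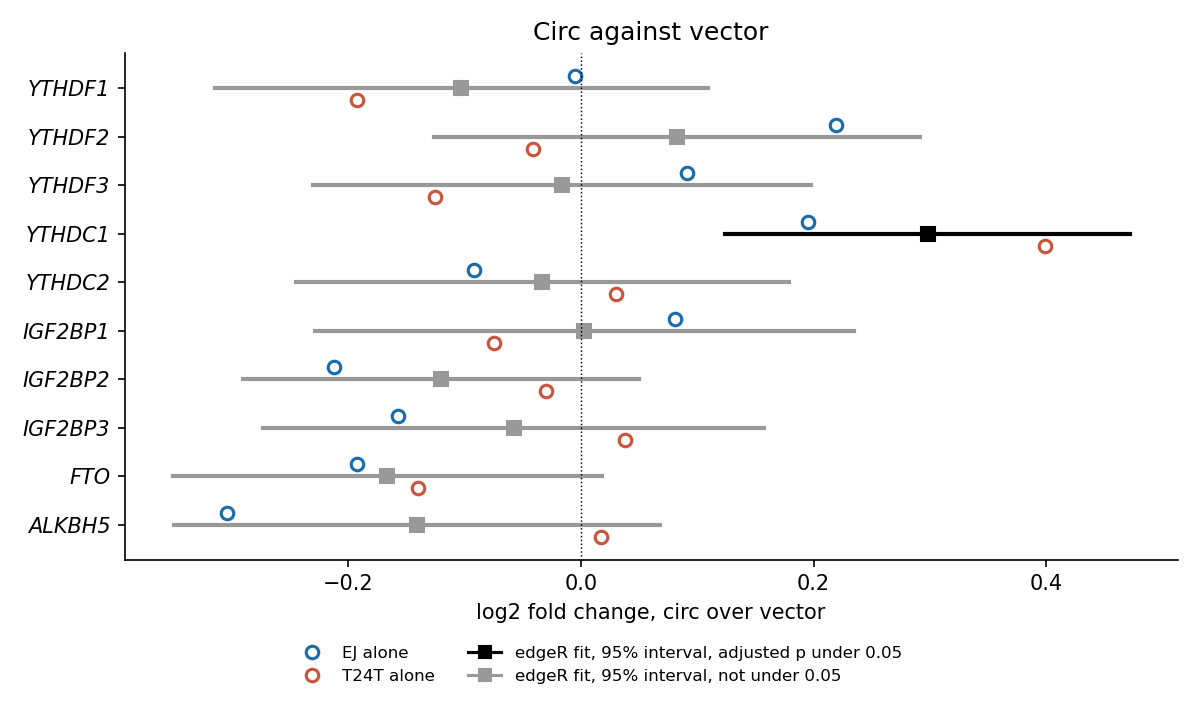
Log2 fold change of circ over vector for each gene, with squares and bars for the edgeR estimate over both lines and its 95% interval (black where the adjusted p is under 0.05) and open circles for EJ (blue) and T24T (red) alone. The bar of YTHDC1 lies right of 0, and the other 9 bars cross 0.

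The cytoplasmic readers showed no shared direction. YTHDF1 (chr20:63195429-63216234, minus strand) gave 484 counts with vector and 451 with circ in EJ, and 649 and 598 in T24T. Its log2 fold change was -0.10 ± 0.10, which rests on T24T, where the ratio was 0.875 (counting interval 0.781 to 0.979) against 0.997 (0.875 to 1.14) in EJ. YTHDF2 (chr1:28736621-28769775, plus strand), the member best known for driving decay of marked mRNA, had 471 and 513 counts in EJ and 714 and 731 in T24T, a log2 fold change of 0.08 ± 0.10. In EJ alone it was 1.16-fold higher in circ (counting interval 1.03 to 1.32), and in T24T the ratio was 0.972 (0.875 to 1.08). YTHDF3 had 553 and 551 counts in EJ and 516 and 498 in T24T, a log2 fold change of -0.02 ± 0.11. For each gene of the trio the circ and vector libraries overlapped. YTHDC2 (chr5:113513683-113595285, plus strand) overlapped as well, with 652 and 572 counts in EJ, 434 and 467 in T24T and a log2 fold change of -0.03 ± 0.10.

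The IGF2BP readers did not pass the test either. IGF2BP2 (chr3:185643739-185825056, minus strand) had 3569 counts with vector and 2880 with circ in EJ, against 5513 and 5687 in T24T. Its log2 fold change was -0.12 ± 0.08 (edgeR adjusted p = 0.391). The circ library was the lower one in each line once scaled, at 192 against 223 CPM in EJ and 325 against 332 in T24T. The ratio was 0.863 (counting interval 0.821 to 0.907) in EJ and 0.979 (0.943 to 1.02) in T24T. IGF2BP1 (chr17:48997412-49055650, plus strand) had 368 and 364 counts in EJ and 376 and 376 in T24T, a log2 fold change of 0.0027 ± 0.11, whose sign turned under RLE and library size scaling. IGF2BP3 (chr7:23310209-23470467, minus strand) had 525 and 440 counts in EJ and 527 and 570 in T24T, a log2 fold change of -0.06 ± 0.11. The circ and vector libraries overlapped for each of these IGF2BP genes.

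Both erasers had negative values that did not pass the test. FTO (chr16:53701692-54158512, plus strand) gave 955 counts with vector and 781 with circ in EJ, and 997 and 953 in T24T. Scaled, its circ libraries held 52.2 and 54.5 CPM and its vector libraries 59.6 and 60.0, so both circ libraries lay below both vector libraries, an order seen in 13.5% of tested genes. Its log2 fold change was -0.17 ± 0.09 (edgeR adjusted p = 0.251), and -0.25 with GC and length trends removed (edgeR adjusted p = 0.0651). The ratio was 0.875 (counting interval 0.795 to 0.962) in EJ and 0.907 (0.829 to 0.993) in T24T. ALKBH5 (chr17:18183078-18209954, plus strand) had 674 and 510 counts in EJ and 650 and 693 in T24T, with a log2 fold change of -0.14 ± 0.10 (edgeR adjusted p = 0.418). Its ratio was 0.809 (counting interval 0.720 to 0.909) in EJ and 1.01 (0.908 to 1.13) in T24T, so the value over both lines rests on EJ.

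For the 9 genes that did not pass, the 95% intervals of the edgeR fit with TMM scaling together ran from 0.784-fold, the lower bound of FTO, to 1.22-fold, the upper bound of YTHDF2. These bounds rest on a spread pooled mostly over all genes, since the fit has 1 residual degree of freedom, so they are not a measure of agreement between the lines. A p above the threshold does not show that a gene was unchanged. In 4 of the 10 genes (YTHDF1, YTHDC1, IGF2BP2 and FTO) the circ ratio had the same sign in both lines, beside 65.7% of all tested genes, and in 6 it had opposite signs. With library size scaling ALKBH5 was negative in both lines.

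**Figure D3:**
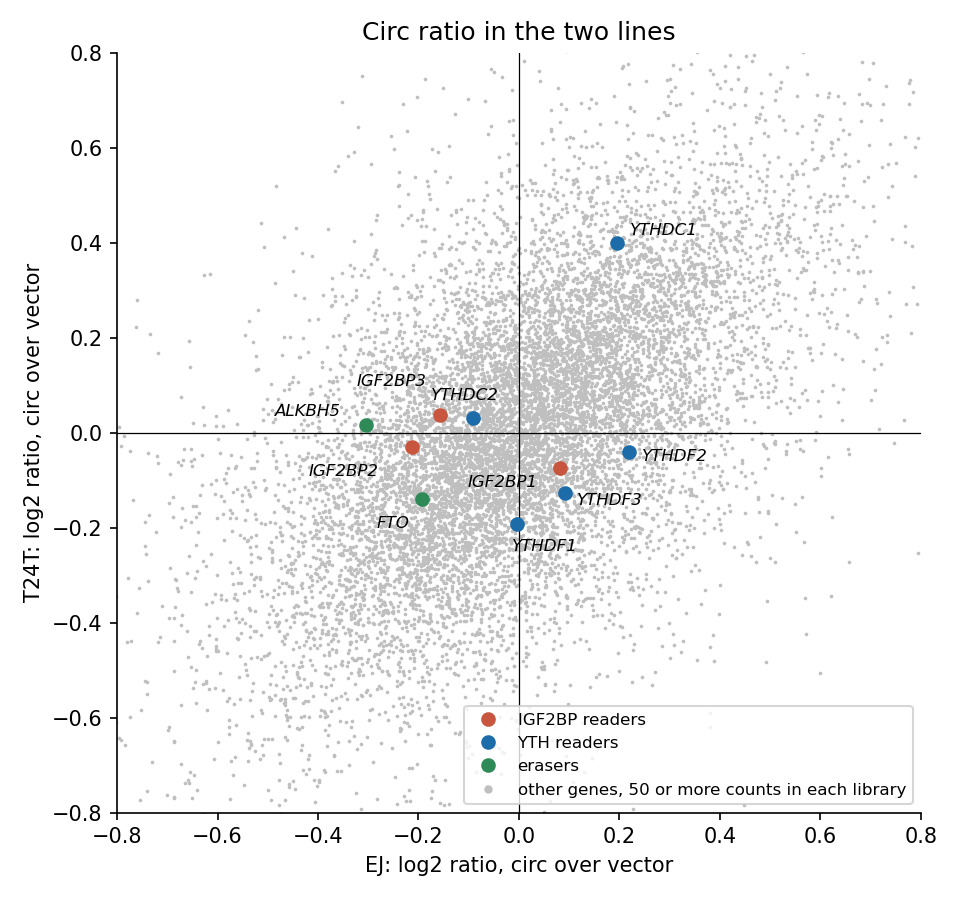
Log2 ratio of circ over vector in EJ (horizontal) against T24T (vertical) for genes with 50 or more counts in each library (grey, axes limited to 0.8 in either direction), with the 10 members coloured by family. YTHDC1 lies in the upper right with 0.20 in EJ and 0.40 in T24T, and no other member is above 0 in both lines.

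The lines themselves differed in 6 of the 10 genes, against 41.4% of all tested genes called between T24T and EJ (21.9% higher and 19.5% lower in T24T). In T24T, 4 members were higher and 2 lower (edgeR adjusted p under 0.05, transfection as the block), and these included all 5 YTH readers. The median log2 fold change of the 10 was 0.05, beside 0.01 for all tested genes. In 3 members both T24T libraries lay above both EJ libraries and in 3 below, beside 31.4% and 29.1% of tested genes.

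IGF2BP2 was higher in T24T, with 332 and 325 CPM in the T24T vector and circ libraries against 223 and 192 in EJ. It was 1.59-fold higher in T24T (log2 0.67 ± 0.08, edgeR adjusted p = 7.87e-08, 95% interval 1.41 to 1.79). Among vector libraries alone the ratio was 1.49 and among circ libraries alone 1.69. YTHDC2 went the other way, with 40.7 and 38.2 CPM in EJ against 26.1 and 26.7 in T24T. It was lower by a log2 fold change of -0.58 ± 0.10 (edgeR adjusted p = 3.11e-05), a fold of 0.670 with an interval of 0.578 to 0.776. With GC and length trends removed, the log2 value of YTHDC2 was -0.37 (edgeR adjusted p = 0.00516). For both genes the lines did not overlap.

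The YTHDF trio split between the lines. YTHDF2 was higher in T24T, at 43.0 and 41.8 CPM against 29.4 and 34.3 in EJ (log2 0.42 ± 0.10, edgeR adjusted p = 0.00138). YTHDF1 was higher too, at 39.1 and 34.2 against 30.2 and 30.1 (log2 0.28 ± 0.10, edgeR adjusted p = 0.0318), but had 0.14 with GC and length trends removed (edgeR adjusted p = 0.271). YTHDF3, on chromosome 8, was lower, at 31.1 and 28.5 against 34.5 and 36.8 (log2 -0.26 ± 0.11, edgeR adjusted p = 0.0453). The summed RPKM of the trio lay between 22.9, in EJ vector, and 27.6, in T24T vector. YTHDC1 was 0.23 ± 0.09 higher on the log2 scale (edgeR adjusted p = 0.0332), with its EJ circ library above its T24T vector library. DESeq2 called only IGF2BP2 and YTHDC2 among these 6 (18.9% of all its genes), limma-voom called all 6 (41.7%), and YTHDF1 and YTHDC1 were not called by edgeR with library size scaling alone or with no filter (adjusted p between 0.0751 and 0.125). Over 10 alternatives YTHDC2 was called in 10, IGF2BP2 in 9, YTHDF2 in 6, YTHDF3 in 5, YTHDC1 in 4 and YTHDF1 in 3.

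The erasers and the other IGF2BP genes were not called between the lines. FTO had a log2 fold change of 0.04 ± 0.09, ALKBH5 one of 0.05 ± 0.10, IGF2BP3 one of 0.05 ± 0.11 and IGF2BP1 one of -0.10 ± 0.11, and library size scaling turned the sign of the first 3. With GC and length trends removed, FTO, the longest member, was 0.38 higher on the log2 scale in T24T (edgeR adjusted p = 0.00126). Their 95% intervals ran from 0.795-fold to 1.20-fold. For IGF2BP1 both T24T libraries, at 22.6 and 21.5 CPM, lay below both EJ libraries, at 23.0 and 24.3.

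**Figure D4:**
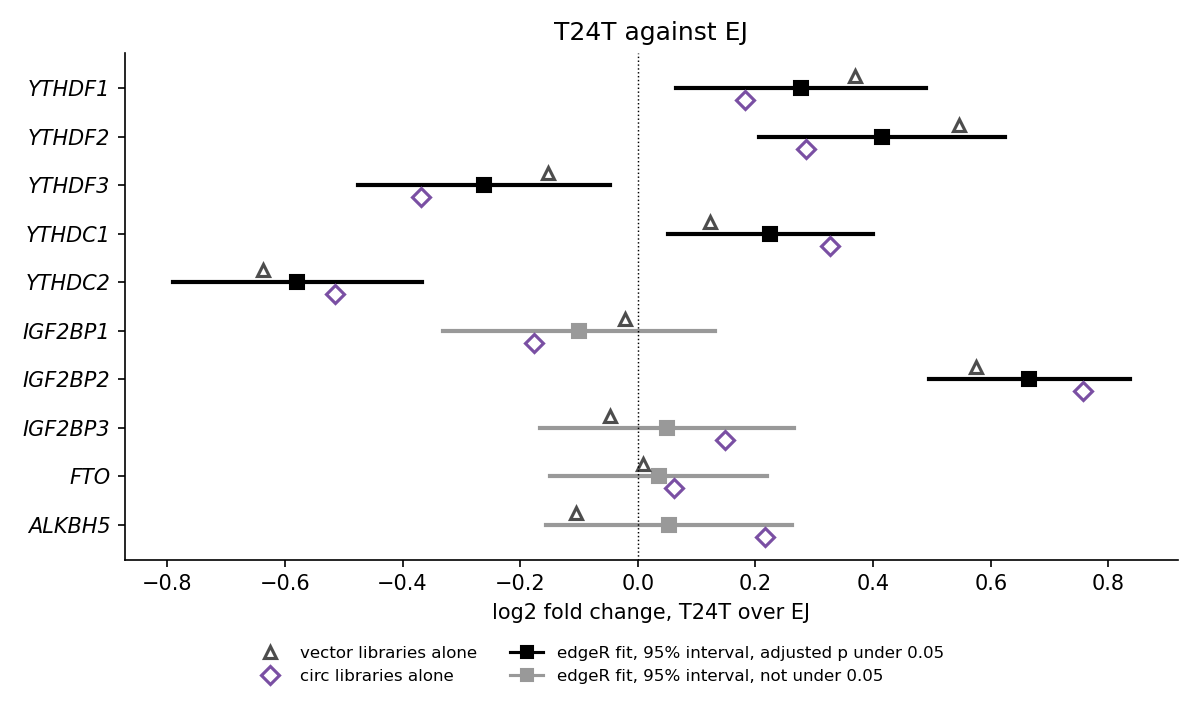
Log2 fold change of T24T over EJ for each gene, with squares and bars for the edgeR estimate and its 95% interval (black where the adjusted p is under 0.05), triangles for the vector libraries alone and diamonds for the circ libraries alone. IGF2BP2 lies farthest right and YTHDC2 farthest left, and the erasers sit around 0.

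Other genes of the pathway were taken from lists, which are described by counts and medians. These are to be read against all tested genes, of which 7.13% were called higher and 5.56% lower with circ (median log2 fold change 0.0018), and 21.9% higher and 19.5% lower in T24T (median 0.01). In the writer list, 1 of 13 tested genes rose with circ and 0 fell (3 higher and 0 lower at an unadjusted p under 0.05, 0 called by DESeq2), with a median log2 fold change of 0.05. The riser was KIAA1429, also called VIRMA, the large scaffold subunit of the writer complex (0.27 ± 0.09, edgeR adjusted p = 0.0359). ZC3H13 (0.26 ± 0.09, edgeR adjusted p = 0.0575) did not pass, and neither did RBM15 (0.35 ± 0.12, 0.0584), which recruits the complex to RNA. Between the lines, 3 writers were higher in T24T and 4 lower, 7 of 13 beside 41.4% of all tested genes, and DESeq2 called 2. WTAP was higher (log2 0.59 ± 0.09, edgeR adjusted p = 2.34e-06) and KIAA1429 lower (-0.56 ± 0.09, 2.51e-06). WTAP itself had 1013 and 1055 counts in EJ and 1773 and 1667 in T24T, with a circ value of -0.01 ± 0.09 on the log2 scale. It shares 7.5% of its exon bases with SOD2 on the opposite strand, whose counts went from 1698 in EJ vector to 11326 in T24T vector.

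Among 12 other RNA-binding proteins described as m6A readers, 1 rose with circ and 0 fell (2 higher and 0 lower unadjusted), beside 12.7% of all tested genes called, and the median was -0.0027. EIF3A, the largest subunit of translation initiation factor eIF3, went from 23312 to 32650 counts with circ in EJ, and in T24T from 13946 to 26029. It rose by 0.70 ± 0.08 on the log2 scale (edgeR adjusted p = 2.63e-07), and it was the 1 gene of the 5 added lists that DESeq2 also called with circ. RBMX (0.19 ± 0.08, edgeR adjusted p = 0.133) and EIF3B (0.13 ± 0.08, 0.340) did not pass. Between the lines, 2 genes of this list were higher in T24T and 2 lower (2 called by DESeq2), with EIF3A lower (-0.67 ± 0.08) and FXR1, a relative of the fragile X protein, higher (0.47 ± 0.08).

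The list of effectors and other factors linked to YTH proteins had 1 rise and 0 falls among 15, with a median of 0.03. At an unadjusted edgeR p under 0.05, 3 were higher and 1 lower, and DESeq2 called 0. The riser was SRSF10, a splicing factor linked to YTHDC1 (0.29 ± 0.08, edgeR adjusted p = 0.0186). It had 2643 and 3034 counts in EJ and 2192 and 2808 in T24T. SRSF3, the other splicing factor of the list linked to YTHDC1, had 0.16 ± 0.08 and did not pass. CNOT1, the scaffold of the deadenylase complex that YTHDF2 recruits, had -0.22 ± 0.08 (edgeR adjusted p = 0.0687), and MEIOC, the meiotic partner of YTHDC2, 0.23 ± 0.09 (0.105). CNOT1 shares 10% of its exon bases with SETD6 on the opposite strand, which had between 401 and 589 counts. MEIOC shares 6.23% with CCDC43 on the opposite strand, which had between 1126 and 1340 counts. It also shares 21.2% with RP11-1072C15.4 on that strand, which had between 2 and 5 counts. In T24T against EJ, 1 gene of this list was higher and 7 lower, beside 21.9% and 19.5% of all tested genes. DESeq2 called 4. The lower ones included the decay factors PATL1 (-0.44 ± 0.08) and UPF1 (-0.40 ± 0.08). The list's median was -0.22.

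The other AlkB-family dioxygenases, relatives of the erasers that act on tRNA, DNA or other substrates, included genes that passed the test in both directions. Of 7 tested, 2 rose and 1 fell, beside 7.13% and 5.56% of all tested genes, with a median of 0.23 (3 higher and 1 lower unadjusted, 0 called by DESeq2). ALKBH8, a tRNA-modifying enzyme, had 219 and 335 counts in EJ and 229 and 337 in T24T (0.60 ± 0.13, edgeR adjusted p = 0.00161). ALKBH2, a DNA alkylation repair enzyme, had 1065 and 1262 in EJ and 825 and 1166 in T24T (0.38 ± 0.09, edgeR adjusted p = 0.00363). ALKBH7, a mitochondrial member, fell, with 216 counts for vector and 141 for circ in EJ and 247 and 206 in T24T (-0.42 ± 0.14, edgeR adjusted p = 0.0439). For ALKBH8 and ALKBH2 the DESeq2 adjusted p was 0.156 and 0.151, and for ALKBH7 DESeq2 gave none. ALKBH7 shares 7.15% of its exon bases with PSPN on the opposite strand. ALKBH6 shares 25.1% with AC002116.8 on the same strand, which had between 169 and 193 counts. Between the lines 0 of the 7 were higher and 2 lower in T24T (1 called by DESeq2), ALKBH2 (-0.38 ± 0.09) and ALKBH6 (-0.46 ± 0.12).

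In the list of transcripts long described as bound by IGF2BP proteins and of the LIN28 and HMGA2 axis, 11 of 13 genes could be tested. LIN28B had 0 counts in each library and LIN28A a single count in T24T vector. With circ, 1 gene rose and 2 fell, and the median was -0.03 (0 called by DESeq2). ACTB (-0.26 ± 0.08, edgeR adjusted p = 0.0258) and the actin-bundling gene FSCN1 (-0.26 ± 0.09, 0.0450) fell. The imprinted noncoding RNA H19 rose (1.39 ± 0.38, edgeR adjusted p = 0.0137), which rests on T24T, since its counts were 7 and 7 in EJ and 21 and 73 in T24T, and DESeq2 gave it no adjusted p. Between the lines 6 genes were higher in T24T and 2 lower, beside 21.9% and 19.5% of all tested genes, and DESeq2 called 7. IGF2, the growth factor mRNA for which the IGF2BP family is named, had 127 and 59 counts in EJ against 21208 and 20748 in T24T (log2 7.71 ± 0.14, edgeR adjusted p = 4.71e-29), and CD44 was higher as well (1.08 ± 0.09). IGF2 shares 15.9% of its exon bases with the readthrough gene INS-IGF2, which had between 0 and 610 counts.

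**Figure D5:**
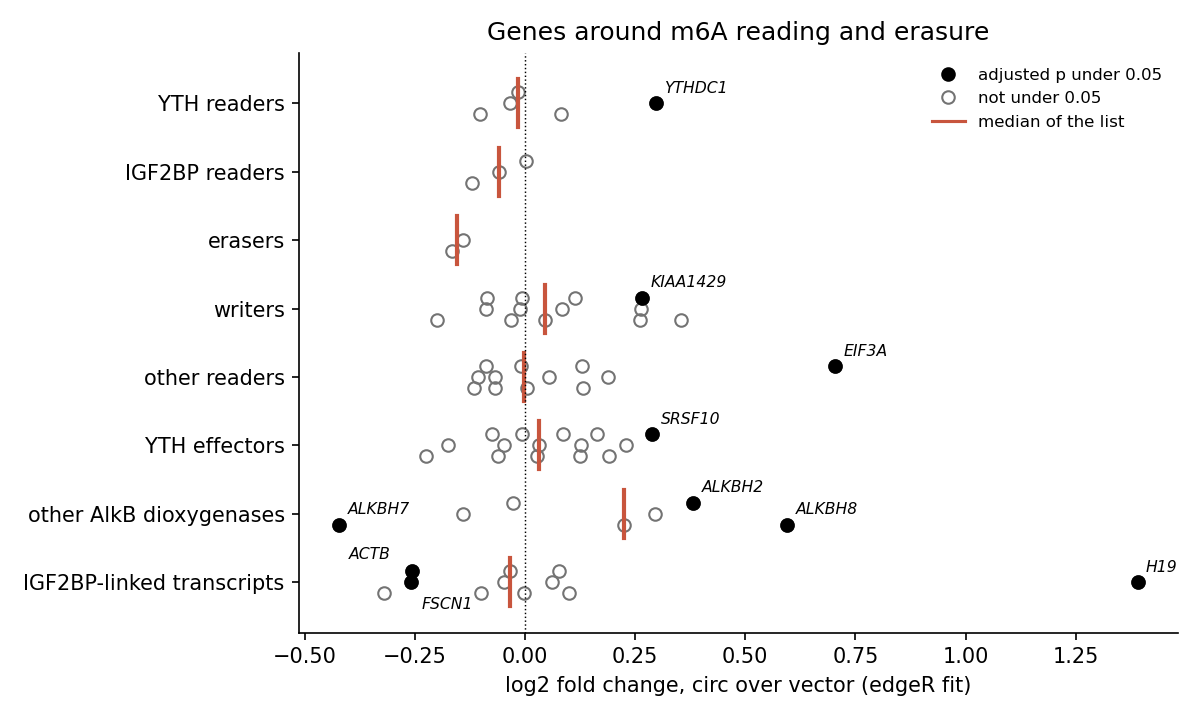
Log2 fold change of circ over vector for each tested gene of the member families and the 5 added lists, with filled points where the edgeR adjusted p is under 0.05 and a red bar at each list's median. EIF3A, ALKBH8 and H19 lie farthest right, and most points of each list lie between -0.3 and 0.3.

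The genes whose pattern over the 4 libraries was nearest to a member were sought among 10355 others with 50 or more counts in each library, by the Euclidean distance of centred log2 CPM. For YTHDC1 these were RREB1 (distance 0.032), SMARCA2 (0.033) and TOR3A (0.039). For IGF2BP2 they were PARVA (0.028), JMY (0.037) and STIM1 (0.039). With 4 libraries and many genes, close distances of this kind describe the libraries only.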

How the data were processed

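Total RNA was isolated with TRIzol, per the labels' protocols. The submitters' processing notes list HISAT2, Trimmomatic and build hg38 without versions. The counting tool, annotation and use of strand are not given in the sources used here. The authors deposited read counts for 56303 genes and RPKM for 29817, and each deposited RPKM value equalled count over length and library total within a relative tolerance of 1e-06. Columns were matched to samples by description, and 0 sample columns were left out. Of the genes, 17689 had 10 or more counts in a library and 20 or more in all.

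The main test was edgeR 4.0.16 (R 4.3.3), TMM scaling, quasi-likelihood, blocked on the line, since each circ library is paired with the vector library of its line. The 1 residual degree of freedom is pooled with 30.5 prior degrees. Threshold was an adjusted p of 0.05. Each ± is the fit's SE. Replication is by line only, and whether cultures were separate is not given. The p-values and SE thus rest on a spread pooled mostly over all genes of these libraries, and they do not measure a spread between cultures. Within a line, log2 ratios used a prior count of 2, with exact 95% binomial intervals for counting error. DESeq2 1.42.0, limma 3.58.1, other scalings, filters, prior counts and RPKM pseudocounts of 1 and 0.1 were alternatives. The fit was also run on simulated data, whose outcome is not given here and is not used as support for the values above.

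The members and lists were chosen with earlier results of these data known. The rule for names took all members, up to 3 genes per list with the smallest adjusted p for circ and up to 2 between lines, overlapping genes, and 3 nearest genes for 2 members; SRSF3 and the LIN28 genes were added after their values were seen. GC values covered 80.9% of tested genes. Promoters are from RefSeq (8 of 10 members matched), and principal transcripts from GENCODE release 29.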

Additional observations from a re-analysis of the deposited data

Results flagged for a closer look

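With TMM scaling, the circ ratio had opposite signs in the lines in 6 genes, and the same sign in 65.7% of all tested genes. Each of these 6 patterns was seen in 1 library pair per line and was not tested as a difference. The T24T log2 ratio minus the EJ log2 ratio was 0.32 for ALKBH5 (-0.30 in EJ, 0.02 in T24T), -0.26 for YTHDF2 (0.22 and -0.04), -0.22 for YTHDF3 (0.09 and -0.13), 0.20 for IGF2BP3 (-0.16 and 0.04), -0.16 for IGF2BP1 (0.08 and -0.07) and 0.12 for YTHDC2 (-0.09 and 0.03). With library size scaling and with log2(RPKM + 1), ALKBH5 in T24T was -0.0062 and -0.0058, the sign it had in EJ, which leaves 5 genes. For ALKBH5 and YTHDF2 the EJ counting interval of the fold left out 1, and no T24T interval of these 6 did.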

How the results depend on the processing

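The count of members called with circ was 1 under RLE scaling, library size scaling, both filters, limma-voom and GC and length removal (added after seeing the data), and 0 with DESeq2, with limma on log2(RPKM + 1) or log2(RPKM + 0.1), and with no replicate block, that is without pairing by line. Those 4 settings called 334, 0, 0 and 0 of all genes (1463, 3548, 2933 and 397 unadjusted) against 2246, and 1, 1, 0 and 0 members unadjusted. Between the lines 2, 2 and 1 members were called by DESeq2 and by limma on log2(RPKM + 1) and log2(RPKM + 0.1), and 2 with line alone, against 6. All genes numbered 3217, 4784, 3051 and 3192 against 7315. With library size scaling, no filter and the filter of 50 counts, edgeR called 4, 4 and 5 members (7576, 7225 and 5314 of all genes). RLE scaling and limma-voom called 6 each (7619 and 7370 of all genes). GC and length removal also called 6 (6605 of all genes), with FTO in place of YTHDF1. Over 10 tested alternatives the adjusted p of YTHDC1 with circ ranged from 0.00806 to 1.0, that of IGF2BP2 between lines from 5.27e-13 to 0.0534, and that of YTHDC2 from 3.15e-07 to 0.0476.

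Values near 0 changed sign. IGF2BP1 with circ was -0.0074 (RLE), -0.013 (library size), -0.014 (no filter), -0.0014 (50 counts), -0.0071 (DESeq2), -0.0081 and -0.012 (limma on RPKM). Between lines, under library size, log2(RPKM + 1) and log2(RPKM + 0.1), IGF2BP3 was -0.014, -0.011 and -0.013, FTO -0.028, -0.021 and -0.027, and ALKBH5 -0.0098, -0.0076 and -0.0076. With GC and length trends removed, ALKBH5 was -0.11 and FTO, the longest member, 0.38 (edgeR adjusted p = 0.00126). The cause was not tested. Leaving out a line leaves values with no test, printed above for circ in each line. All 100 alternative within-line ratios stayed inside the counting interval.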
